A study of Mus musculus with 48 samples.

Results

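The striatum of mice that carry the Huntington's disease knock-in and lack Msh3 by label was compared with that of wild type mice, to see which transcripts still differ and by how much. The 15 libraries were chosen by their labels: 8 of Q140 Msh3-/- and 7 of wild type, out of 48 libraries in 6 groups. Q140 is a heterozygous knock-in (Het KI in the labels) of an expanded CAG repeat into Htt. Msh3-/- is homozygous at a mutant Msh3 allele whose design the labels do not describe. All animals were 6 months old and on a C57BL/6 background, the tissue was the corpus striatum, and no treatment is named. The double mutant group held 4 female and 4 male libraries and the wild type group 3 female and 4 male. Levels in Q140 (n = 8), in Msh3-/- (n = 8), in Msh3+/- (n = 9) and in Q140 Msh3+/- (n = 8) are given beside them where needed. The labels do not say that each library is 1 mouse, so each p-value sets a difference against the spread between libraries. That spread was estimated over all 48 libraries.

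MSH3 is a mismatch repair protein that recognises small loops in DNA, and in brain cells this activity lengthens expanded CAG repeats over life. The striatum is built mostly of medium spiny neurons (MSNs), GABAergic projection cells that carry either the D1 or the D2 dopamine receptor, and it is the region most affected in Huntington's disease. Loss of MSN transcripts, among them the neuropeptide precursor Penk, is a known feature of the striatum in mouse models with long repeats.

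Counts per library ran from 33.7 to 49.7 M in the 15 libraries, and 19975 genes had enough reads to be tested. Levels are CPM, read counts scaled to a common library size, and changes are log2 fold changes, double mutant over wild type, with their standard errors (SE). A gene is called, and is said to have risen or fallen, where its adjusted p was below 0.05. Some libraries stood apart in markers of other cells. Wild type M2 was the highest of the 15 in choroid plexus and ependymal genes, whose summed level was 663 CPM there, with a median of 55.6 CPM in wild type and 47.1 to 93.1 CPM in the double mutant. Wild type F3 was the highest in interferon response genes. The mean log2 CPM of the 13 cortical neuron markers was 3.22 in wild type M4 and reached 3.13 in the double mutant, with a median of 2.49 in wild type and 2.15 in the double mutant. By summed level, which the abundant markers set, the same list ran from 1114 to 1383 CPM in wild type, highest in F1, and from 1204 to 1351 CPM in the double mutant, highest in F2. In bulk tissue, fewer cells of a type and less RNA per cell cannot be told apart.

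The double mutant differed from wild type in 40 genes, 22 higher and 18 lower, which is 0.2% of those tested (0.11% higher and 0.0901% lower). Without adjustment, 1656 genes were below 0.05 (802 higher, 854 lower). In the same fit Q140 alone differed from the same wild type libraries in 3969 genes, or 19.9% (9.64% higher and 10.2% lower), and Msh3-/- alone in 6 genes, or 0.03%. The double mutant differed from Q140 in 2374 genes, or 11.9%. Most of the 40 differences were small: the median size was 0.39, a 1.31-fold change, 13 genes passed 1.5-fold and 9 passed 2-fold. Tested against a null of 1.2-fold with edgeR's glmTreat, 6 genes (0.03%) remained: Msh3, Rasgrf2, Cmya5, F2r, AW495222 and Gm2420. Of these 6, all but Gm2420 lie within 5 Mb of Msh3 on chromosome 13, and Gm2420 lies 2.03 Mb from Htt. The ranges of the 2 groups did not overlap in 34 genes (0.17%), of which 14 were among the 40.

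**Figure D1:**
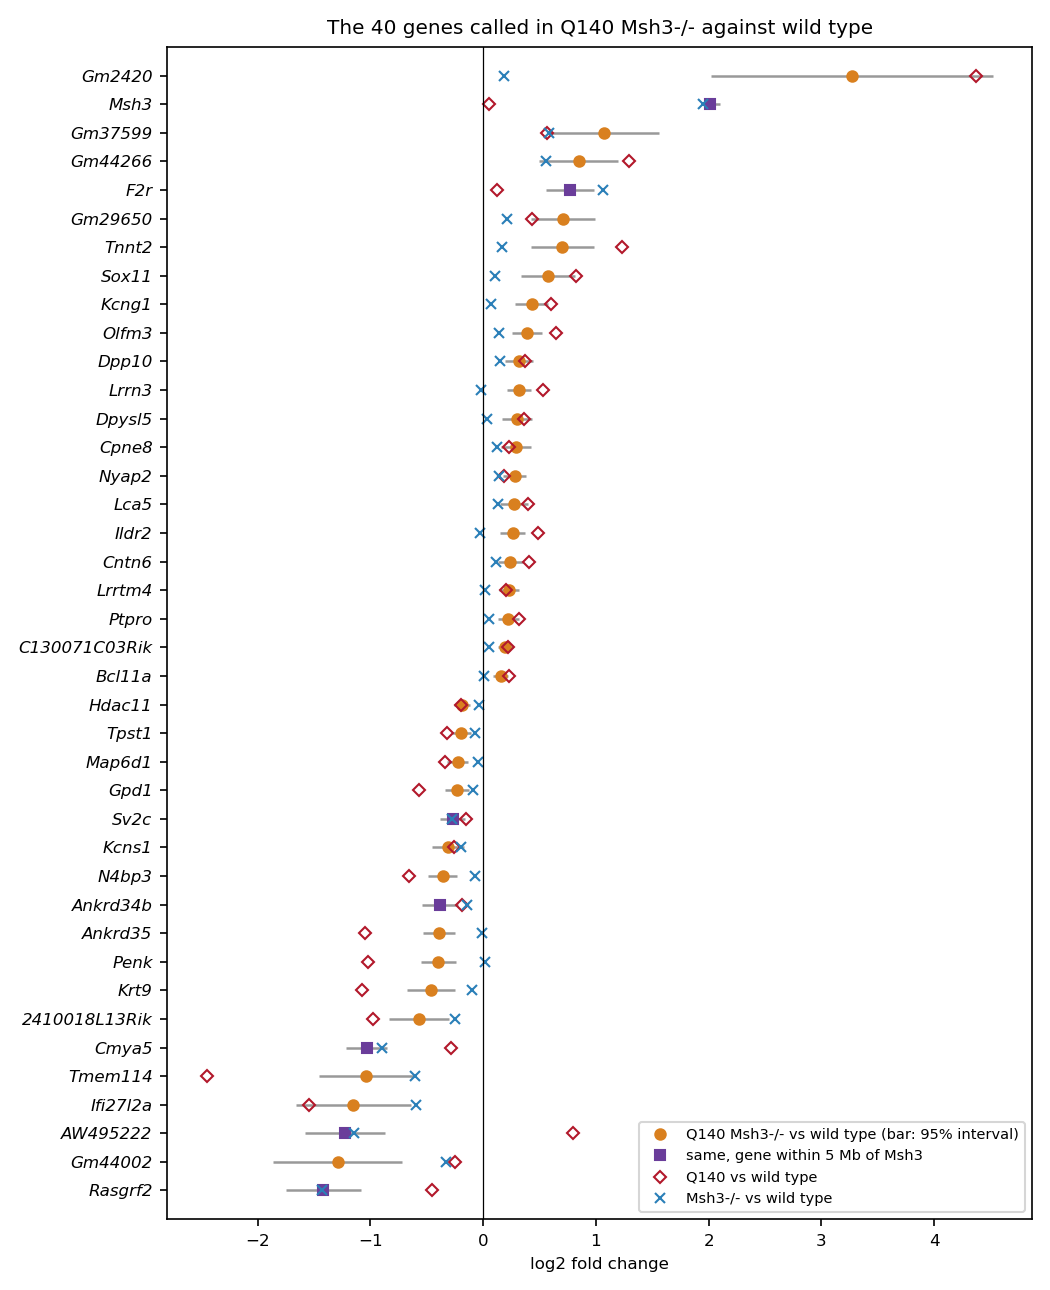
Log2 fold change (horizontal axis) of the 40 called genes in Q140 Msh3-/- against wild type (filled points, with 95% intervals as bars, squares for genes within 5 Mb of Msh3), with Q140 against wild type (open diamonds) and Msh3-/- against wild type (crosses). The crosses lie near the squares for Msh3, Rasgrf2, Cmya5 and AW495222, while for genes such as Penk (-0.40 in the double mutant, -1.02 in Q140, 0.02 in Msh3-/-) they lie near 0.

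Msh3 itself was the gene with the smallest p, and it was higher. Reads assigned to Msh3 (chromosome 13, 92211872 to 92355003, minus strand, GRCm38) stood at 29.1, 31.1 and 33.04 CPM as the lowest, median and highest wild type library, and at 118, 123 and 135.5 CPM in the double mutant. The change was 2.01 (SE 0.0409, adjusted p = 1.03e-38), a 4.04-fold higher level, and every double mutant library lay above every wild type library. A count over the whole gene does not show which exons the reads cover or whether a protein is made, so the loss of Msh3 function rests on the labels.

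Around Msh3, 7 of the 60 genes tested within 5 Mb were called, 11.7% against 0.2% of all genes, and 5 of these 7 were lower. Rasgrf2, the neighbour of Msh3 and an exchange factor that activates Ras and Rac, was at 27.4, 53.6 and 101 CPM in wild type (lowest, median, highest) and at 15.1, 22.5 and 25.5 CPM in the double mutant. It fell by 1.42 (SE 0.165, adjusted p = 5.93e-07) with no overlap of the groups. Cmya5, a protein of the muscle sarcomere, was at 12.2, 18.6 and 19.95 CPM and fell to 7.01, 8.49 and 10.2 CPM (-1.03, SE 0.0898, adjusted p = 2.84e-11). F2r, the thrombin receptor PAR1, rose from 3.30, 3.81 and 5.10 CPM to 5.72, 6.83 and 8.14 CPM (0.77, SE 0.104, adjusted p = 8.29e-06). The groups did not overlap for either gene. Sv2c, a synaptic vesicle glycoprotein abundant in the basal ganglia, fell from 465 ± 26.0 (SD, n = 7) to 383 ± 22.9 CPM (n = 8), a change of -0.27 (SE 0.0537, adjusted p = 0.00711), again with no overlap. AW495222, annotated as an antisense RNA, fell by 1.22 (SE 0.177) and Ankrd34b by 0.39 (SE 0.08).

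The same neighbourhood differed in Msh3-/- mice without the knock-in. Against the same wild type libraries, the log2 change in Msh3-/- was 1.95 for Msh3, -1.43 for Rasgrf2, -0.90 for Cmya5, 1.06 for F2r, -1.14 for AW495222, -0.28 for Sv2c and -0.15 for Ankrd34b, of which the last did not pass the test. Those comparisons share the wild type libraries. Msh3-/- against Msh3+/-, which shares no library with the main comparison, gave 3 calls (0.015% of genes), Msh3, Cmya5 and F2r, and all 3 are among the 7: they are 100% of that list and 42.9% of the 7. There the change was 0.63 for Msh3, -0.51 for Cmya5 and 0.49 for F2r. Within 20 Mb of Msh3 the calls numbered 8 of 217 genes, the eighth being the long noncoding RNA C130071C03Rik. AW495222 was also higher in Q140 than in wild type (0.80), with 2.29 to 3.49 CPM in Q140 against 1.16 to 2.10 in wild type, while Msh3-/- and the double mutant were both lower than wild type.

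**Figure D2:**
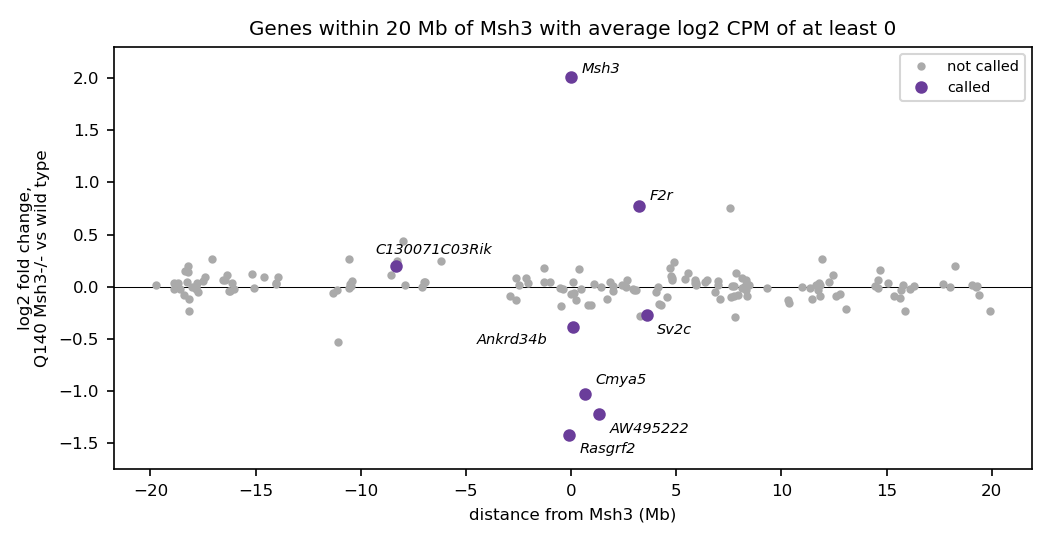
Log2 fold change in Q140 Msh3-/- against wild type (vertical axis) by distance from Msh3 in Mb (horizontal axis) for genes whose log2 CPM averaged 0 or more, called genes in purple. The called genes other than C130071C03Rik lie within 5 Mb, with Msh3 at 2.01 and Rasgrf2 at -1.42.

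Outside that window 33 genes were called, 20 higher and 13 lower. Their median size was 0.32 (1.25-fold), and the 2 groups did not overlap in 8 of them. Penk, the enkephalin precursor made by D2 MSNs (chromosome 4, 4133531 to 4138819, minus strand), was the most abundant. It was at 1756, 1954 and 2196 CPM in wild type (lowest, median, highest) and at 1318, 1485 and 1679 CPM in the double mutant, so that all 8 double mutant libraries lay below all 7 of wild type. Penk fell by 0.40 (SE 0.0776, adjusted p = 0.00701), to 76.1% of wild type, while Q140 stood at 49.4% and Msh3-/- at 1983 CPM. The call of Penk was lost with the plate column as a covariate, without the 4 libraries highest in cortical markers, and without double mutant F1, F3 and F4, with a log2 change from -0.43 to -0.32 over these and the other alternatives and an adjusted p from 0.000468 to 0.318. Penk overlaps a noncoding transcript, A830012C17Rik, on the opposite strand.

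Other genes fell by similar or smaller amounts. Ankrd35, an ankyrin repeat protein, was at 15.2, 16.4 and 18.2 CPM in wild type and at 9.45, 12.6 and 14.6 CPM in the double mutant (-0.39, SE 0.0717, adjusted p = 0.00247), with no overlap. N4bp3, a binding partner of the ubiquitin ligase Nedd4, was at 9.80, 10.7 and 11.2 CPM and fell to 6.86, 8.50 and 9.54 CPM (-0.36, SE 0.0652, adjusted p = 0.00247), also with no overlap. Both stood lower still in Q140, at 48.2% and 63.4% of wild type. Hdac11, a class IV histone deacetylase, fell from 208 ± 9.17 to 184 ± 11.1 CPM (-0.18, SE 0.0347, adjusted p = 0.00406), and Q140 was at the same level, 182 CPM.

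The remaining falls were in genes of varied kinds. Gpd1, the cytosolic glycerol-3-phosphate dehydrogenase, fell by 0.23 (SE 0.0543), the silent potassium channel subunit Kcns1 by 0.31 (SE 0.072), and the keratin Krt9 by 0.46 (SE 0.106), with adjusted p-values of 0.0487, 0.0411 and 0.0423. Map6d1, related to the microtubule stabiliser MAP6, fell by 0.23 (SE 0.0482) and Tpst1, a tyrosine sulfotransferase of the Golgi, by 0.19 (SE 0.0413). Weakly expressed genes fell most: Tmem114 from 0.978 to 0.476 CPM, the interferon-inducible Ifi27l2a from 0.549 to 0.254 CPM, and the clones Gm44002 and 2410018L13Rik by 1.29 and 0.57. Gm44002 lies on the opposite strand inside the span of Hdac11, and whether reads were counted by strand is not given in the sources used here.

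Promoters from RefSeq (GRCm38.p6) were searched for 23 of the 33 genes. Penk, Gpd1, Ifi27l2a, Lrrn3, Kcng1 and the clones Gm44002, Gm44266, Gm37599, Gm2420 and Gm29650 had no promoter in the set used and were not searched. The motif TGACG, the core of the cAMP response element bound by CREB, was searched on both strands in the 250 bases before the start, and was found in 3 of the 9 promoters of genes that fell, in 2 of the 14 of genes that rose, and in 17.9% of all 27025 promoters. The 3 from genes that fell are shown because they hold the motif, in capitals, at -175, -136 and -109 from the start, and Sox11, a transcription factor gene that rose, is shown as a promoter without it. The other 3 motifs searched were GCGGGGGCG (1 of the 9 and 0 of the 14, against 2.56% of all promoters), TGACTCA (0 and 0, against 4.43%) and CACGTG (0 of the 9 and 1 of the 14, against 6.05%).
Krt9: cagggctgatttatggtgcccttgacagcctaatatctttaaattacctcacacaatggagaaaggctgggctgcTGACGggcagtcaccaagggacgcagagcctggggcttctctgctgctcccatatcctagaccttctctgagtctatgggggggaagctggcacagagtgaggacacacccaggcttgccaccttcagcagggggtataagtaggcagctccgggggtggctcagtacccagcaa
Map6d1: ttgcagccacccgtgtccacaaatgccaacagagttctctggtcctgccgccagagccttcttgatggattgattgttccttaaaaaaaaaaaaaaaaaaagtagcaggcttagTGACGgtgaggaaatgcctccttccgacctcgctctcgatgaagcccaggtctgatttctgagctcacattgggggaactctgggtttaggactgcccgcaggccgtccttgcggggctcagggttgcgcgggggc
Hdac11: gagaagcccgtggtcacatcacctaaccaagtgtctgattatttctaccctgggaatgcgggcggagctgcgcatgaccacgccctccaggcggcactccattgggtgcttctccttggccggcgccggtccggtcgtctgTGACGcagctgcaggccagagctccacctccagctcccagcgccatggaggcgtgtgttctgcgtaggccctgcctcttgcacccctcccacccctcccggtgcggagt
Sox11: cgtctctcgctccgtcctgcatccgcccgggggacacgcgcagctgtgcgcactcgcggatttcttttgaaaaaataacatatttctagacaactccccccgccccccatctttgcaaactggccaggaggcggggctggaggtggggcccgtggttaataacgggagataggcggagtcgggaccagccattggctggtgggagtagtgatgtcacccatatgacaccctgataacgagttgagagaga
These windows lie at chr11:100193247-100193496, chr16:20241359-20241608, chr6:91156565-91156814 and chr12:27342719-27342968, with Hdac11 on the plus strand and the others on the minus strand.

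Outside the Msh3 window 20 genes rose. Lrrn3, a leucine-rich repeat protein of the neuronal surface, rose from 40.1, 43.6 and 47.0 CPM to 49.4, 54.3 and 59.6 CPM (0.32, SE 0.0547, adjusted p = 0.00122). Olfm3, a secreted olfactomedin that binds AMPA receptor complexes, rose from 15.8, 18.0 and 19.3 CPM to 19.9, 23.6 and 26.5 CPM (0.39, SE 0.0656, adjusted p = 0.000897). The double mutant libraries were above all wild type libraries for both. Kcng1, an electrically silent subunit that modifies Kv2 potassium channels, rose from 41.1, 48.1 and 56.6 CPM to 57.3, 63.6 and 78.5 CPM (0.43, SE 0.0738, adjusted p = 0.00129), and Nyap2, an adaptor of neuronal PI3-kinase signalling, from 48.3 ± 2.91 to 58.4 ± 4.81 CPM (0.28, SE 0.0497), both with no overlap. Dpp10, an auxiliary subunit of Kv4 channels, rose by 0.32 (SE 0.0624), the synaptic adhesion protein Lrrtm4 by 0.23 (SE 0.0444) and the contactin Cntn6 by 0.24 (SE 0.0552). The receptor tyrosine phosphatase Ptpro rose by 0.22, Ildr2 by 0.26, the copine Cpne8 by 0.29, and the ciliary protein gene Lca5 by 0.27.

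The transcription factor genes Sox11 and Bcl11a and the muscle gene Tnnt2 were also among the 20. Sox11, a transcription factor of immature neurons (chromosome 12, 27334264 to 27342574, minus strand), rose from 15.1, 21.2 and 21.8 CPM to 23.7, 29.7 and 33.4 CPM with no overlap (0.57, SE 0.118, adjusted p = 0.0133). Bcl11a, a zinc finger repressor, rose by the smallest amount of any called gene, from 78.3 ± 3.68 to 87.1 ± 3.02 CPM (0.16, SE 0.033, adjusted p = 0.0146). Tnnt2, the troponin T of heart muscle, rose from 3.42 ± 0.757 to 5.46 ± 1.09 CPM (0.70, SE 0.14), against 7.94 CPM in Q140. The noncoding RNA C130071C03Rik rose by 0.19 (SE 0.0326), and 4 weakly expressed clones rose: Gm44266, Gm37599, Gm2420 and the Y-linked Gm29650. Gm29650 was at 0 CPM in wild type females and at 0 to 0.0236 CPM in double mutant females, so its change rests on the males. It was called in 5 of 11 alternative settings.

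**Figure D3:**
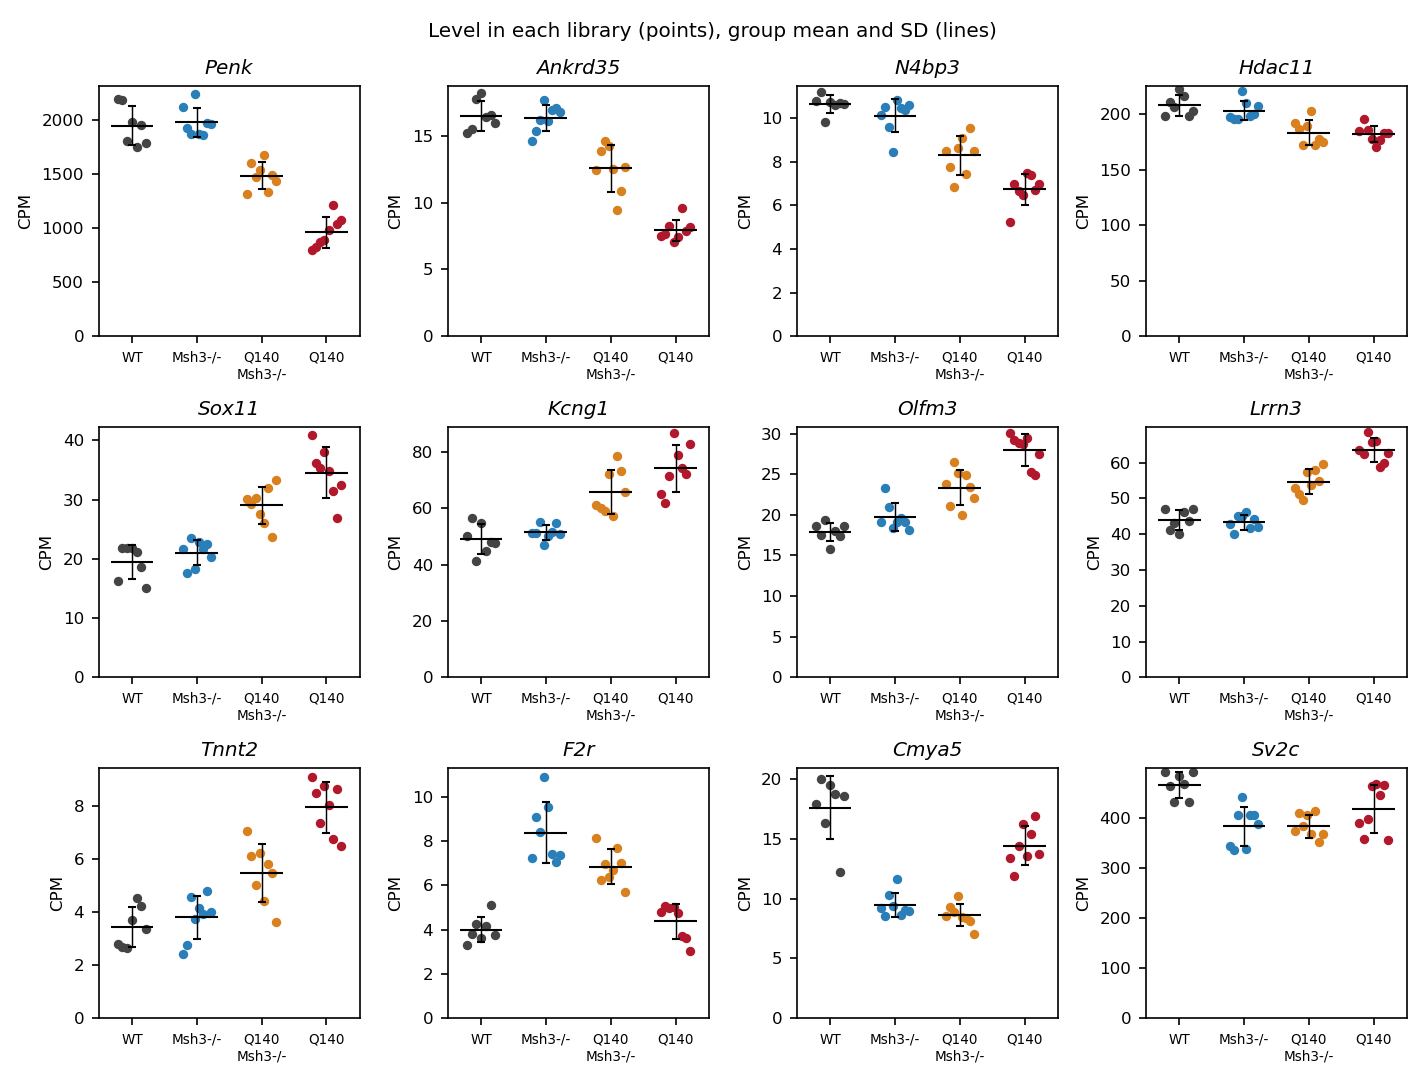
CPM (vertical axes, from 0) in each library of wild type (WT), Msh3-/-, Q140 Msh3-/- and Q140 (points), with group means and SD as lines, for 12 called genes. Penk, Ankrd35 and N4bp3 are lower in Q140 Msh3-/- and lower again in Q140, Sox11, Kcng1, Olfm3, Lrrn3 and Tnnt2 are higher, and F2r, Cmya5 and Sv2c differ from wild type in both groups labelled Msh3-/-.

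The knock-in was also present on an Msh3+/- background, in libraries outside the 2 groups compared above. They were part of the same fit, so the estimate of the spread is shared. Q140 Msh3+/- against Msh3+/- gave 1289 calls, 6.45% of genes (2.96% higher, 3.49% lower). All 33 genes called outside the Msh3 window had the same sign there, against 61.2% of all genes tested, and 29 were called there with that sign: they are 87.9% of the 33 and 2.25% of the 1289. The change there was -0.63 for Penk, -0.71 for Ankrd35, -0.37 for N4bp3, 0.44 for Kcng1, 0.37 for Olfm3, 0.38 for Lrrn3, 0.54 for Sox11 and 0.79 for Tnnt2. The 4 that were not called there were Nyap2 (0.08), Gm37599, Gm44002 and Gm29650. In Msh3-/- against Msh3+/-, 0 of the 33 were called by edgeR at the adjusted threshold, and 20 had the same sign, or 60.6% against 49.5% of all genes tested.

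Near Htt the double mutant libraries split. Gm2420, a transcribed pseudogene at chromosome 5, 32720330 to 32736194, was at 0 to 0.0714 CPM in wild type and at 0.739 to 1.06 CPM in Q140. In the double mutant it was at 0 to 0.0606 CPM in F1, F3 and F4 and at 0.546 to 0.782 CPM in the other 5 libraries. Of 45 genes called in Q140 against wild type within 5 Mb of Htt, 13 had ranges that did not overlap between those groups, and in 5 of these 13, or 38.5%, the libraries F1, F3 and F4 stood apart from the other 5. Elsewhere in the genome 687 of the 3924 genes called in Q140 had such ranges, and the 3 libraries stood apart in 50 of the 687, or 7.28%. Over all genes tested, called or not, they stood apart in 10.5% of the 153 near Htt and in 4.28% elsewhere. The 3 libraries had been picked by their levels of Gm2420 and Dpysl5, both within 5 Mb of Htt. Gm2420 is among the 5, and both genes are in the 10.5%, so the shares near Htt were partly fixed by that choice. For Abhd1, a hydrolase gene 3.81 Mb from Htt, wild type was at 3.61 to 4.41 CPM, Q140 at 5.73 to 8.20, the 3 libraries at 3.57 to 4.04 and the other 5 at 5.84 to 7.23. Atraid at 3.71 Mb was at 37.0 to 42.1 CPM in wild type, 29.4 to 34.1 in Q140, 37.5 to 39.9 in the 3 and 29.1 to 32.4 in the other 5. The 3 libraries were therefore near wild type and the other 5 near Q140 for these genes, and for Mrpl33 at 3.10 Mb the order was the same. Zfyve28, at 0.47 Mb, ran the other way, with 93.8 to 96.4 CPM in the 3 and 100.01 to 108.7 in the other 5, against 98.9 to 109.6 in wild type and 67.6 to 97.2 in Q140. Dpysl5, called at 0.30 and 3.96 Mb from Htt, was at 44.1 to 48.4 CPM in the 3 and at 57.2 to 63.6 CPM in the other 5.

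For some called genes away from Htt the same 3 libraries lay outside the wild type range. Penk, Ankrd35 and Lrrn3 are genes in which every double mutant library did, so for them this followed from the choice of genes. Penk was at 1318 CPM in F1, 1338 in F3 and 1492 in F4, below the lowest wild type library, and Ankrd35 at 12.4, 9.45 and 10.8 CPM was also below it. Lrrn3, at 52.96, 58.0 and 54.8 CPM, lay above the highest wild type library. For Cpne8, F1 at 21.7 and F3 at 21.2 CPM lay inside the wild type range of 15.8 to 22.1 CPM. F4, at 22.4 CPM, lay above that range. Without these 3 libraries the calls numbered 16, of which 12 were among the 40. F1, F3 and F4 are 3 of the 4 females, so that fit compared 1 female and 4 males. The part of the chromosome 5 difference in the calls was not tested.

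Closeness to wild type was also measured by intervals, since a missed threshold does not show that a gene is unchanged. The 95% interval of the log2 change lay within 1.2-fold of wild type in either direction for 10995 genes, or 55.0% of those tested, within 1.5-fold for 79.0% and within 2-fold for 93.6%. The share within 1.2-fold was 85.1% of the 12495 genes whose log2 CPM averaged 2 or more and 4.88% of the 7480 below it, where the intervals are wide. The median change over all genes was 0.002. Htt itself was at 209 CPM in wild type and 215 in the double mutant (0.04, 95% interval -0.04 to 0.13), against -0.13 in Q140.

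Genes shared by both MSN classes were nearer wild type in the double mutant than in Q140, but most were below it. Of the 30 listed, 0 were called by edgeR in the double mutant (9 lower and 1 higher without adjustment). Of all 19975 genes tested, 854 were lower and 802 higher without adjustment. Of the 30, 25 were below wild type, against 49.1% of all genes tested. The median change was -0.11, against 0.002 for all genes tested. In Q140 28 of the 30 fell and the median was -0.43, and in Msh3-/- the median was 0.03. The 95% interval lay within 1.2-fold for 19 of the 30, or 63.3%. That share was 55.0% of all genes tested and 85.1% of those whose log2 CPM averaged 2 or more. Averaged over the list, the level was 8.76, 8.85 and 8.93 mean log2 CPM in wild type (lowest, median, highest), 8.61, 8.75 and 8.82 in the double mutant and 8.12, 8.33 and 8.62 in Q140. The double mutant range overlapped that of wild type, and all but the highest Q140 library lay below the double mutant range. Ddit4l, an inhibitor of mTOR signalling, was 35.0 ± 3.83 CPM in wild type and 24.2 ± 4.34 in the double mutant (-0.54, SE 0.134, adjusted p = 0.0788), and Strip2 was the member furthest above (0.30, SE 0.0735, adjusted p = 0.0655). The adenylyl cyclase Adcy5 was at -0.22, the sodium channel subunit Scn4b at -0.31, the phosphodiesterases Pde10a and Pde1b at -0.20 and -0.18, and Ppp1r1b, which encodes DARPP-32, at -0.16, none of them called by edgeR. DESeq2 called 3 of the 30, Ddit4l and Adcy5 lower and Strip2 higher, and limma-voom called Ddit4l and Strip2.

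Genes of the D2 and D1 classes were read separately. Of 8 D2 MSN genes tested, Penk fell and the other 7 were not called, with a median of -0.17 (-0.45 in Q140, 0.02 in Msh3-/-). The adenosine receptor Adora2a was at -0.24 (SE 0.0763), the receptor Drd2 at -0.17 (SE 0.0674) and Gpr6 at -0.16 (SE 0.0579), while Sp9, Ptprm and Grik3 were at 0.12, 0.01 and 0.02. Of 10 D1 MSN genes 0 were called by edgeR (3 higher and 2 lower without adjustment), the median was 0.07, and 7 were above wild type. Tac1, the substance P precursor, was at 0.19 (SE 0.0555) and the muscarinic receptor Chrm4 at -0.21 (SE 0.0595), both with an adjusted p of 0.167. The difference between the 2 lists was not tested.

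Signalling and channel genes were close to wild type. Medians were -0.01 for 29 cAMP signalling genes, -0.06 for 31 calcium signalling genes, -0.04 for 30 glutamate and GABA receptor genes and -0.04 for 37 potassium channel genes, of which Kcng1 rose and no other was called. In Q140 18 of the 37 potassium channel genes and 19 of the 31 calcium genes had fallen, where 10.2% of all genes tested had. The furthest receptor was Gabra2, a subunit of the GABA-A receptor, at 132 ± 17.3 CPM in wild type and 93.6 ± 30.6 in the double mutant (-0.51, SE 0.16, adjusted p = 0.245).

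Activity-regulated genes had the most negative median of the neuronal lists, -0.36, with 0 called by edgeR. Of the 21, 20 were below wild type, against 49.1% of all genes tested. Without adjustment 7 were lower, against 854 of all 19975 genes. Egr1, an immediate early transcription factor, averaged 609 CPM in wild type and 430 in the double mutant (-0.49, SE 0.208), and Per1 at -0.31 (SE 0.114). The spread was wide within both groups: the list level ran from 4.41 to 5.90 mean log2 CPM in wild type and from 4.27 to 5.42 in the double mutant, so the ranges overlapped over most of their length. No member had its interval within 1.2-fold.

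Glial and vascular lists held 0 genes called by edgeR, DESeq2 or limma-voom. All 16 oligodendrocyte genes were below wild type, against 49.1% of all genes tested. Their median was -0.18, and 5 were lower without adjustment, against 854 of all 19975 genes. Fa2h, an enzyme of myelin lipid synthesis, was at 53.2 CPM in wild type and 45.5 in the double mutant (-0.22, SE 0.0866, not called). The list level overlapped, at 6.60 to 7.17 in wild type, highest in M2, and 6.51 to 6.86 in the double mutant. The summed level ran from 5694 to 8463 CPM in wild type and from 5544 to 6940 CPM in the double mutant, and the part of these cells in the called genes was not tested. The median was -0.13 without wild type M2 and -0.14 without the 4 libraries highest in cortical markers. Medians were -0.15 for oligodendrocyte precursors, -0.09 for microglia, -0.07 for astrocytes and -0.07 for endothelial and mural cells. The microglial median was -0.04 without wild type F3. Complement genes C1qa and C1qb were both at -0.19 and the astrocyte filament gene Gfap at -0.50 (SE 0.238), none of them called.

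**Figure D4:**
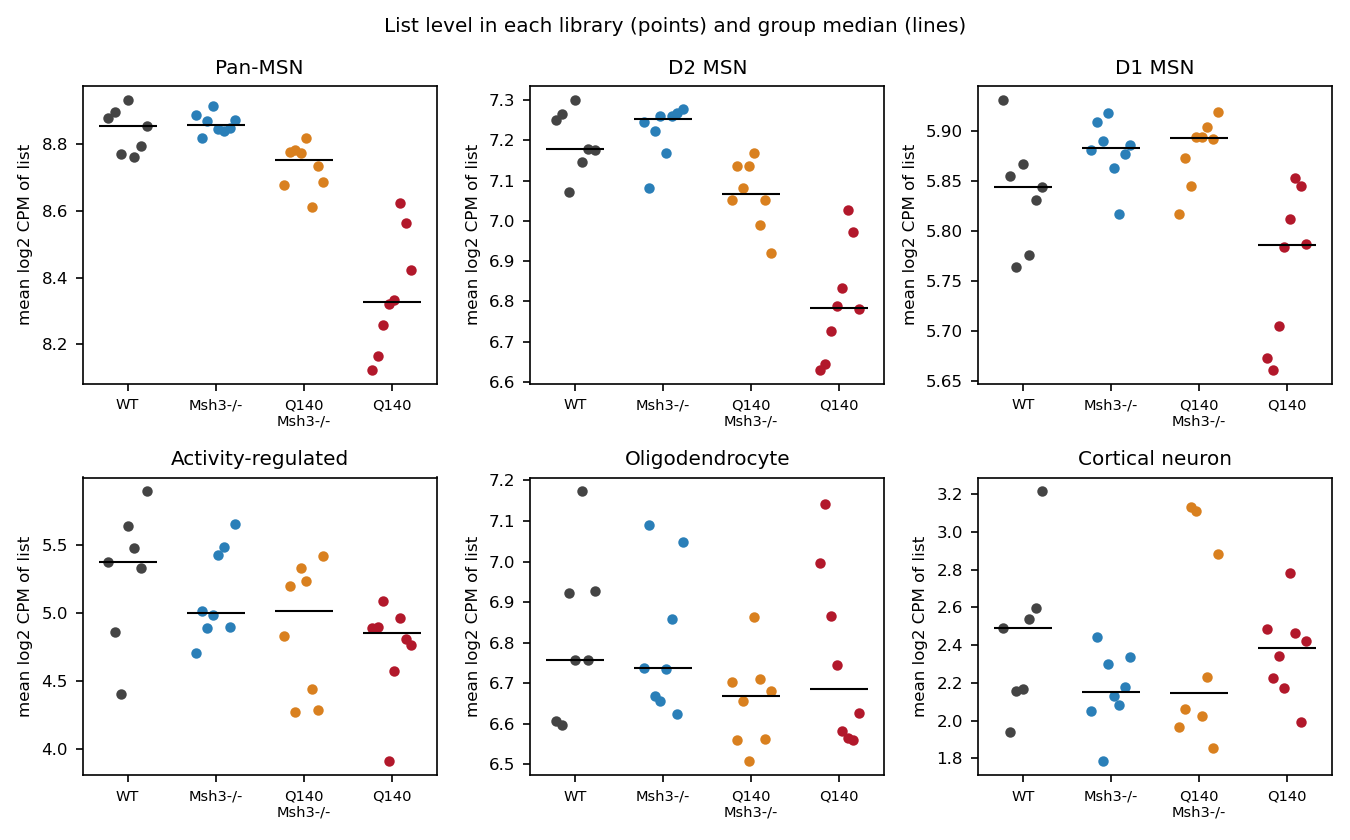
Mean log2 CPM (vertical axes) over the genes of 6 lists in each library (points), with group medians as lines, in wild type (WT), Msh3-/-, Q140 Msh3-/- and Q140. The Pan-MSN level runs from 8.61 to 8.82 in the double mutant, above most Q140 libraries, and the cortical panel shows wild type M4 and 3 double mutant libraries above the rest.

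Markers of neighbouring tissue differed between single libraries. The median over 13 cortical neuron markers was -0.004, but it was 0.15 without wild type M4. The choroid plexus and ependymal list had a median of -0.94, which was -0.18 without wild type M2. Ttr, the transthyretin of choroid plexus, was at 120 CPM in wild type on average and 14.01 in the double mutant, and was not called (SE 1.25). Medians were -0.08 for interneurons, -0.05 for septal, pallidal and thalamic neurons and -0.08 for blood. Within the striatal tissue the defining markers of MSNs were high in every group, with Ppp1r1b at 2090 and 1869 CPM in wild type and the double mutant.

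Genes of DNA repair and repeat stability other than Msh3 were close to wild type. Of 20 tested, 0 were called by edgeR (1 higher without adjustment), the median was 0.02, and 17 had an interval within 1.2-fold. Msh6, another mismatch repair gene, was at 0.04 and Fan1, a nuclease that limits repeat expansion, at -0.01. Medians were 0.02 for p53 and DNA damage genes and 0.02 for Polycomb genes. For developmental transcription factors the median was -0.02; among them Dlx5, a regulator of striatal interneurons and MSNs, was at 0.17 (SE 0.0488). The beta protocadherins, surface proteins from 1 gene cluster, had a median of 0.10 against 0.30 in Q140, with 15 of 21 above wild type and 0 called by edgeR (4 higher and 2 lower without adjustment). Pcdhb8 was below wild type (-0.55, SE 0.13, adjusted p = 0.0533 by edgeR), and it was called lower by DESeq2 and limma-voom. Pcdhb22 was called higher by DESeq2.

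In the energy, lipid and stress lists edgeR called 0 genes, and DESeq2 called 1, Cox7c. Nuclear-encoded respiratory genes had a median of 0.02, and 31 of 32, or 96.9%, had an interval within 1.2-fold; Cox7c was the furthest, at 0.25 (SE 0.0619, adjusted p = 0.0771 by edgeR). The median was -0.01 for the 13 mitochondrially encoded genes and -0.03 for 23 genes of cholesterol synthesis, among them Srebf2 at -0.10. Heat shock genes had a median of -0.06, and 0 were below 0.05 even without adjustment. Of the 21, 19 were below wild type, against 49.1% of all genes tested. Interferon response genes had a median of -0.05, which became 0.17 without wild type F3. The direction of the interferon list therefore rested on that library.

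**Figure D5:**
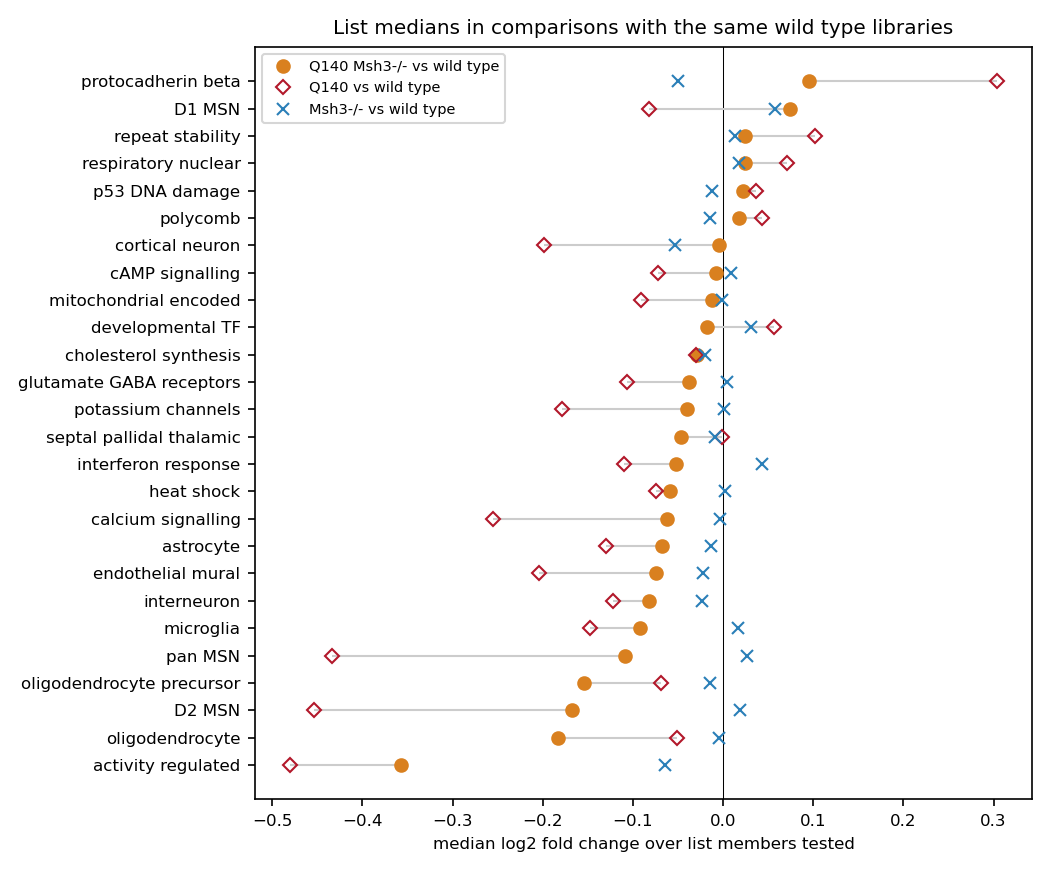
Median log2 fold change over the members tested (horizontal axis) of 26 lists in Q140 Msh3-/- (filled), Q140 (diamonds) and Msh3-/- (crosses), each against the same wild type libraries; blood and choroid plexus are left out for their range. The Pan-MSN median is -0.11 in the double mutant and -0.43 in Q140.

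Against Msh3-/- instead of wild type, the double mutant differed in 15 genes, 0.0751% of those tested, 10 higher and 5 lower. This contrast holds the Msh3 genotype constant and shares the double mutant libraries with the main one, so its values are given side by side only. Penk was at -0.41 (SE 0.0751, adjusted p = 0.00686) against -0.40 with wild type as the reference, and Lrrn3 at 0.33 against 0.32. Msh3 was at 0.06 and Rasgrf2 at 0.01, neither called. Called here and not against wild type were Pde1b (-0.22 and -0.18), the phosphodiesterase of MSNs, Ddit4l (-0.61 and -0.54), the serotonin receptor Htr2c (0.40 and 0.24), the sulfate-donor enzyme Papss2 (-0.21 and -0.13), the villin-like gene Vill (0.48 and 0.40) and Tmc3 (0.67 and 0.57). Of the 15, 14 were called with the same sign in Q140 Msh3+/- against Msh3+/-, which shares no library with this contrast and called 6.45% of all genes.

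The difference from wild type was tested for a difference between the sexes, and 1 gene (0.00501%) was called, Gpr101, an orphan receptor gene on the X chromosome (57496668 to 57503757). In females it was at 9.93 ± 0.667 CPM in wild type (n = 3) and 17.3 ± 1.90 in the double mutant (n = 4). In males it was at 19.7 ± 1.78 CPM in wild type and 11.2 ± 1.80 in the double mutant (n = 4 each). Within each sex the 2 groups did not overlap, in opposite directions. The changes were 0.80 and -0.81, and they differed by 1.62 (SE 0.23, adjusted p = 0.000381). In Msh3-/- the level was 13.3 ± 2.15 CPM in females and 10.9 ± 1.203 in males, and in Q140 18.6 ± 1.13 and 20.4 ± 0.91. Without adjustment 1370 genes were below 0.05 for this difference. The number called was 7 without wild type M2. No number is given without the 4 libraries highest in cortical markers, since M1 would be the only double mutant male.

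The calls differ in how far they rest on single libraries. Of the 40, 20 were called with each of the 15 libraries left out in turn, and 14 of these also under all 11 alternative settings: Msh3, Rasgrf2, Cmya5, F2r, Sv2c, AW495222, N4bp3, Ankrd35, Olfm3, Lrrn3, Dpp10, Lrrtm4, Nyap2 and Kcng1. Of the rest of these 20, Penk, Tmem114, Hdac11 and C130071C03Rik kept the call in 10 of the 11 settings, Tnnt2 in 9 and Gm2420 in 8. Gm2420 was lost with limma-voom and with only the 2 groups compared. The stricter filter removed Gm2420, Tmem114, Ifi27l2a, Gm37599 and Gm44002 for their low levels. They were not tested there, which is counted as a lost call. The other 20 of the 40 lost the call when 1 or more single libraries were left out, though each kept its sign. Over the left-out fits, Ildr2 ran from 0.23 to 0.29 and lost the call without double mutant F3, Ankrd34b from -0.42 to -0.34 (lost without wild type M3), Gm44266 from 0.76 to 0.97 (wild type M2), and Sox11 from 0.51 to 0.62 (wild type M1 or M4). The call of Sox11 was also lost with the plate column or the plate row as a covariate. Bcl11a ran from 0.14 to 0.18 (lost without wild type M2 or M3). Tpst1 ran from -0.21 to -0.17 (lost without wild type F3 or M2, or double mutant F3). Gm29650 ran from 0.58 to 0.83 (lost without wild type M1, or double mutant F4 or M4). Ptpro ran from 0.20 to 0.25 and Map6d1 from -0.26 to -0.20, each lost in 4 fits, and Ifi27l2a kept the call in 9 fits and Lca5 and Gm44002 in 6. Cpne8 kept it in 3 of the 15 fits, Gpd1, Cntn6 and 2410018L13Rik in 4, and Kcns1, Krt9, Dpysl5 and Gm37599 in 5. Groups of libraries that stood apart were left out after the data were seen: the calls numbered 25 without wild type M2 and F3, and 16 without the 4 libraries highest in cortical markers by mean log2 CPM (wild type M4 and double mutant M2, M3 and M4). Of those, 21 and 15 were among the 40. Without these 4 libraries, M1 was the only double mutant male. Msh3, Rasgrf2, Cmya5, F2r, AW495222 and Lrrn3 were called under every alternative and with every left-out set.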

How the data were processed

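Striatal RNA was purified with RNeasy and made into Illumina TruSeq stranded libraries, per the labels' protocols. The authors deposited read counts per gene, made with STAR 2.7.5c, SAMtools 1.10 and HTSeq 0.12.3 on GRCm38 (mm10), per the submitters' processing notes. The annotation release and strand setting are not given in the sources used here. Groups came from the titles.

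All 48 libraries were fitted together with edgeR 4.0.16 (R 4.3.3): TMM scaling, genes with a count of at least 10 in enough libraries (filterByExpr, total of at least 15), a term per group plus sex, the robust quasi-likelihood test, and Benjamini-Hochberg adjustment over 19975 of 48795 genes. The 28820 untested genes held 0.0383% of the counts. Totals ran from 33.7 to 52.8 M over all libraries, and the biological coefficient of variation was 10.3%. CPM used TMM-scaled totals, and log2 CPM a prior count of 0.5. No 2 libraries of the same group agreed within sampling noise in the 28 double mutant and 21 wild type pairs compared.

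Members and lists were chosen with earlier results of these data known. Genes named were Msh3, Htt, the 14 largest changes and 6 smallest p-values in each direction among called genes that are no clones and have an average log2 CPM of at least 0, called genes within 5 Mb of Msh3, and from each list at most 4 called genes, or 2 where none was called. The other called genes and textbook list markers were named after their values were seen. Coordinates are from GENCODE M21 by gene ID, and promoters from RefSeq. Scripts were tested on simulated data. Alternatives were other scalings, tools (DESeq2 1.42.0, limma 3.58.1 voom), filters and covariates, and leaving out libraries. Some results on single genes are not reported here.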

Additional observations from a re-analysis of the deposited data

Results flagged for a closer look

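Values were examined in 134 groups of libraries for a library far from the others, and 6 stood apart, where chance gives about 1 in 20 groups, or 6.7. Gpd1 was highest in double mutant F2, at 110.9 CPM, within the wild type range. Map6d1 was lowest among wild type libraries in F1, at 58.8 CPM, and Bcl11a lowest among double mutant libraries in F2, at 80.6 CPM. The heat shock list was lowest in double mutant M2, at 5.50 mean log2 CPM. Wild type F3 was the highest of its group in both the interferon response list (2.57) and the microglia list (4.89). The change of Gpr101 differed between the sexes by 1.62 on the log2 scale in edgeR's quasi-likelihood test.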

How the results depend on the processing

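The 40 calls numbered 29 to 45 under 10 of the 11 planned settings and 67 with DESeq2 (34 lower). Of the 40 genes, 39 were among the calls of DESeq2, 38 of limma-voom, 29 with the plate row, 24 with the plate column and 23 with only the 2 groups compared. Leaving out each library in turn gave 27 (without wild type M2) to 44 calls, 15 to 26 higher, 11 (without wild type M4) to 20 lower, 5 to 7 beyond 1.2-fold, 10599 to 10856 genes within it, and 1 to 7 genes that differed between the sexes. The last count was 2 with the stricter filter, 2 with only the 2 groups compared, and 0 without the 4 libraries highest in cortical markers. In sets left out after the data were seen, the calls numbered 25 (8 lower) without wild type M2 and F3, 16 (11 higher, 5 lower) without those 4 libraries, and 16 (9 higher, 7 lower) without double mutant F1, F3 and F4; the cause was not tested, and each fit had fewer libraries. The 40 called genes kept their sign under every alternative in which they were tested. The fits share most of their libraries. Of other genes named or listed, 3 that were not called changed sign: Alas2 (0.24 without the 4 libraries), mt-Co1 (-0.019 without wild type M2 and F3) and Hbb-bt (0.12 without wild type M3, and down to -0.90 without double mutant F1). With the replicate block 39 genes were called, 36 of them among the 40, 21 higher and 18 lower. Same-numbered libraries correlated from -0.35 to 0.10 in their deviations. Differently numbered libraries were not compared, so these values do not settle whether the numbers pair them. Some column headers share a stem: wild type M4 with double mutant M4, and double mutant M2 with M3. These are the 4 libraries highest in cortical markers. The labels do not say what the stem means, and it was not used in any fit. Low counts limit precision: 4.88% of genes with an average log2 CPM under 2 had an interval within 1.2-fold.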

Other observations

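Among the Q140 Msh3+/- libraries, which enter no comparison with wild type here, M2 was at 0.0616 CPM for Gm2420 while the other 7 were at 0.621 to 0.934 CPM. That library and double mutant F1, F3 and F4 were the carriers of the knock-in, by label, in which this gene near Htt was at the wild type level.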
